A study of Mus musculus with 11 samples.

Results

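The genes described here make ribosomes: the subunits of RNA polymerases I and III, the factors that start RNA polymerase I, and the nucleolar proteins that cut, modify and fold the precursor of ribosomal RNA. They were taken by name as the protein-coding genes of GRCm38 whose symbols begin with Polr1, Polr3, Utp, Rrp, Nop or Nol followed by a digit or lower-case letter, together with Fbl, Dkc1, Ncl, Bop1, Pes1, Wdr12, Ubtf and Rrn3. Genes named Nop or Nol were to be left out if they had no read in any library, which removed 0. The rule found 60 members among 54838 genes counted. No comparison between groups entered it, but it was chosen with earlier results of these data known. By name alone it also took Nol3, Nol4 and Nol4l, which are not known as ribosome assembly factors, and it left out the Pol I subunits that this annotation calls Cd3eap, Twistnb and Znrd1.

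RNA polymerase I transcribes the long precursor of 18S, 5.8S and 28S rRNA in the nucleolus, and RNA polymerase III makes 5S rRNA, tRNAs and other short RNAs. The precursor is modified by small nucleolar ribonucleoproteins (snoRNPs), which carry guide RNAs, and is assembled and cleaved in the small subunit processome and in large subunit precursors. Fast-growing embryonic stem cells have a high demand for ribosomes. All members are themselves transcribed by RNA polymerase II, so their mRNAs carry the cap that CMTR1 modifies: CMTR1 methylates the ribose of the first transcribed nucleotide.

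The cells were mouse embryonic stem cells (ESCs) of the E14 line, grown on gelatin with LIF, and the labels name no genetic change. They received a control scramble siRNA (3 libraries), CMTR1 siRNA 1 (4 libraries) or CMTR1 siRNA 2 (4 libraries), and total RNA was taken after 36 h, depleted of rRNA and sequenced on directional libraries. The comparison asks which mRNAs differ when CMTR1 is targeted. The study's methods speak of biological replicates for PCR or sequencing, in a number that differs from that of the siRNA libraries, and the labels do not tie libraries to cultures. The p-values measure the spread between libraries, which may be technical.

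Totals were 6738478 to 8382318 counts per library, and 16073 genes over 1 CPM (counts scaled by the library total) in at least 4 libraries were tested. Cmtr1 itself was at 21.3, 21.7 and 17.9 CPM in control, at 21.1, 21.3, 16.2 and 18.04 with siRNA 1 and at 15.6, 16.8, 16.5 and 19.5 with siRNA 2. The groups overlapped, and it was not called lower with siRNA 1 (log2 fold change −0.09, adjusted p = 0.743) or siRNA 2 (−0.25, adjusted p = 0.144) in edgeR's quasi-likelihood test, so the groups are named by their labels. Of its exonic bases, 36.3% also lie in exons of Gm28043 or Gm28052 on the same strand, where reads can be set aside as ambiguous, so these values may cover only part of its transcripts. Of 8 ESC markers, 5 were called lower with siRNA 1 and 3 with siRNA 2, and their summed level was 1916 to 2019 CPM in control libraries, 1644 to 1810 with siRNA 1 and 1731 to 1808 with siRNA 2. All 8 were tested. Summed markers of fibroblasts, endoderm, neural cells and mesoderm stayed at or under 192 CPM in any library. The neural sum was 151 to 152 CPM in control, 163.1 to 185.4 with siRNA 1 and 159.8 to 191.5 with siRNA 2. The fibroblast sum was 47.0 to 54.5, 45.2 to 57.9 and 54.9 to 62.5 CPM in the same order, and the endoderm and mesoderm sums overlapped control. Of these markers Nes was called higher with each siRNA, and Col1a1 higher and Col3a1 lower with siRNA 2. No gene of these lists was without reads. The part of these shifts in the results that follow was not tested. All log2 fold changes below compare CPM between groups, with Benjamini-Hochberg adjustment over all 16073 genes, and a gene is called changed at an adjusted p of at most 0.05.

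In control ESCs the members were abundant. Per kilobase of exon, a scale on which genes can be compared, the 59 tested members had a median of 34.2 CPM, against 6.16 for all genes tested. The highest were Ncl, nucleolin, at 249.7 ± 7.0 CPM per kilobase (SD, n = 3), Nop56, a core protein of box C/D snoRNPs, at 207.6 ± 5.43, and Fbl, fibrillarin, the methyltransferase of the same particles, at 126.9 ± 5.35. These neighbours in the order differed by more than their SDs. Nop2 (109.4 ± 3.31), Rrp9 (100.5 ± 1.11) and Nolc1 (97.9 ± 3.20) came next, and Rrp9 and Nolc1 did not differ beyond their SDs.

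**Figure D1:**
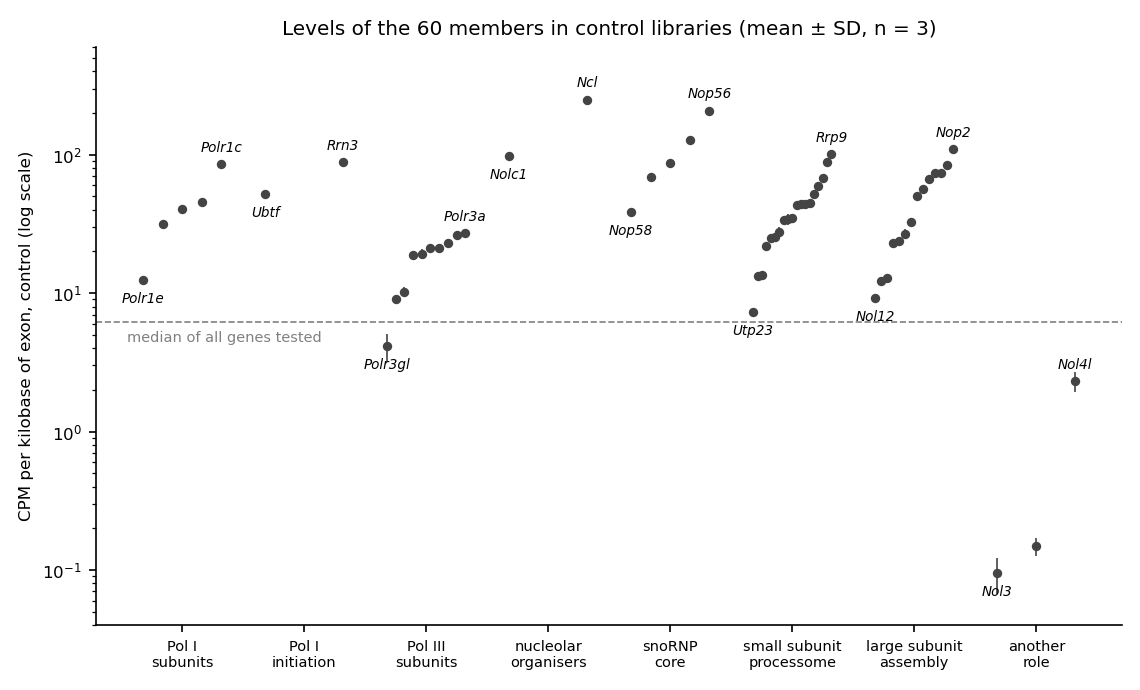
Level of each of the 60 members in the control libraries, in CPM per kilobase of annotated exon on a log axis, grouped by role (points are means and bars SDs of 3 libraries; the lowest and highest member of each group are named). The snoRNP core and nucleolar organisers reach the highest levels, the Pol III subunits lie between 4.13 and 27.0, and Nol3 and Nol4 lie far under the dashed median of all genes tested.

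Pol I subunits had a median of 40.5 CPM per kilobase over 5 genes and Pol III subunits 20.2 over 10. The 19 processome members had a median of 35.0 and the 14 large subunit assembly members 41.6. These levels depend on the annotated length, which includes long 3′ ends for Ncl (8202 bases), Nop58 (9539 bases) and Wdr12 (10613 bases) and lowers their values. In all, members held 1.02 to 1.05% of the counts in control libraries, 0.981 to 1.04% with siRNA 1 and 0.985 to 1.03% with siRNA 2.

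Most members did not move detectably. With siRNA 1, 4 of the 59 tested members were called, which is 6.78%, beside 4.67% of all genes tested. Ubtf and Polr1b were lower (2 members, beside 1.97% of all genes) and Polr3g and Nol4 higher (2 members, beside 2.71%). With siRNA 2, 7 members were called (11.9%, beside 9.72% of all genes). Ubtf, Ncl, Utp14a and Rrp9 were lower (4 members, beside 3.55%), and Polr3g, Nol11 and Nol4 were higher (3 members, beside 6.17%). With the mean of both siRNAs, 6 were called (10.2%, beside 6.91%), of which Ubtf, Ncl and Utp14a were lower (beside 2.72%) and Polr3g, Utp14b and Nol4 higher (beside 4.19%). Nol4 is among those called against control, though it passed the filter through the groups in which it is higher. Without Nol3, Nol4 and Nol4l the counts were 3 of 57 with siRNA 1 (5.26%), 6 with siRNA 2 (10.5%) and 5 over both (8.77%). The split of directions depended on scaling. With siRNA 2 it was 6 lower and 2 higher with TMM factors and 5 and 1 with DESeq2, with siRNA 1 it was 2 and 1 and then 2 and 0, and over both it was 3 and 2 and then 4 and 0. All genes shifted likewise: 316 lower and 435 higher with siRNA 1 became 400 and 346 with TMM factors and 322 and 199 with DESeq2, and 571 and 991 with siRNA 2 became 734 and 728, then 549 and 409.

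Of these counts, that with siRNA 1 depended most on single libraries. With siRNA 1 edgeR called 0 members without control replicate 2 or 3 or siRNA 1 replicate 2 or 4 (5, 7, 6 and 8 had an unadjusted p under 0.05), 1 without control replicate 1 and 2 without siRNA 1 replicate 3 or siRNA 2 replicate 1. With siRNA 2 it called 4 without control replicate 2, and over both siRNAs 2 without control replicate 2 or 3. DESeq2 on all libraries called 2 with siRNA 1, 6 with siRNA 2 and 4 over both.

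The median log2 fold change of the 59 members was 0.003 with siRNA 1 and 0.03 with siRNA 2, beside 0.02 and 0.03 for all genes tested. With siRNA 1, 29 members lay below 0 and 30 above, and with siRNA 2, 20 lay below and 39 above. That is 49.2% and 33.9% below 0, beside 43.2% and 42.9% of all genes tested. The balance depended on scaling: with TMM factors 39 lay below 0 with siRNA 1 and 26 with siRNA 2, and the median with siRNA 1 turned to −0.02. Members lay close to 0: the interquartile range ran from −0.04 to 0.05 with siRNA 1, against −0.08 to 0.14 for all genes, and from −0.04 to 0.09 with siRNA 2, against −0.09 to 0.16. The 95% interval of the fold change lay wholly within 1.2-fold of no change for 53 of 59 members with siRNA 1 and for 46 with siRNA 2. The same held for 36.0% and 33.5% of all genes, whose intervals were wider (a median of 0.22 on either side of the log2 estimate for each siRNA, against 0.11 for members).

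**Figure D2:**
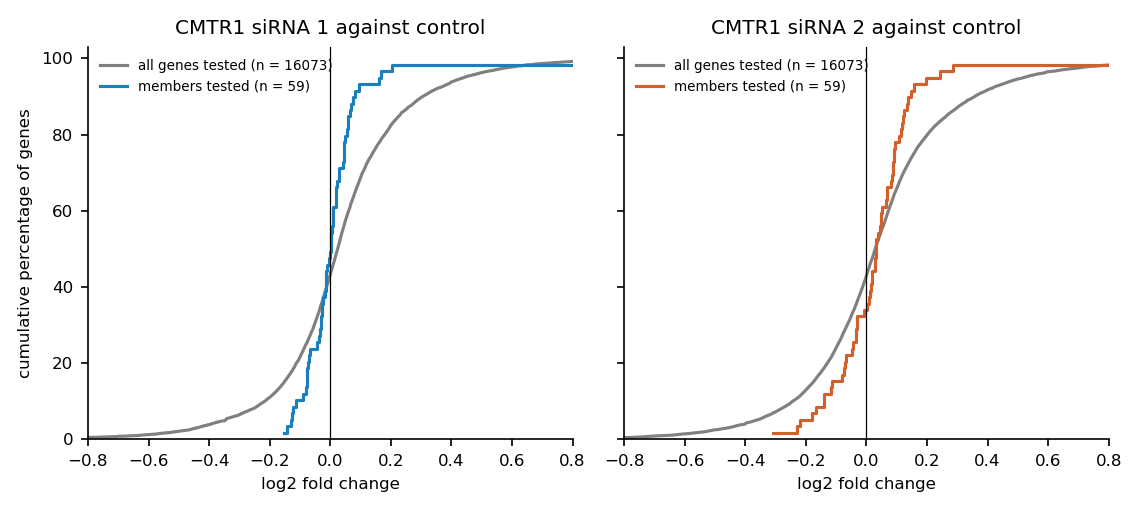
Cumulative percentage of genes by log2 fold change against control, for CMTR1 siRNA 1 (left) and CMTR1 siRNA 2 (right); coloured lines are the 59 members tested and grey lines all 16073 genes tested. The members rise steeply around 0, with medians of 0.003 and 0.03, and Nol4 lies beyond the right edge in both.

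For comparison, genes named as cytosolic ribosomal proteins (symbols that begin with Rpl or Rps and a digit) lay mostly below 0. Most encode the proteins that these factors assemble with rRNA, but the list also took paralogs such as Rpl10l and Rpl22l1, and Rpl7l1. With siRNA 1, 77 of 80 were below 0 (median −0.07) and with siRNA 2, 76 of 80 (median −0.08), beside 43.2% and 42.9% of all genes. At least 76 of 80 were below with each siRNA under TMM factors or DESeq2. With siRNA 1, 3 of the 80 were called lower (3.75%, beside 1.97% of all genes): Rpl10l, Rpl13a and Rpl22l1. With siRNA 2, 17 were called lower (21.2%, beside 3.55%), and none was called higher with either siRNA. Both sets share the same control libraries, and the difference between the sets was not tested. Both were also chosen with earlier results of these data known. With TMM factors and with DESeq2 most members also lay below 0 with siRNA 1 (39 and 40 of 59).

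The siRNA groups and control did not overlap, every library of one group lying above or below every library of the other, at 11 members with siRNA 1 (18.6%, beside 15.5% of all genes) and at 14 with siRNA 2 (23.7%, beside 19.4%). A test of any difference over the 3 groups called 10 members (16.9%, beside 13.7% of all genes): Ncl, Nol11, Nol4, Polr1b, Polr3f, Polr3g, Rrp9, Ubtf, Utp14a and Utp6. Their fold changes, other than that of Nol4, stayed under 1.2-fold in either direction against control.

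**Figure D3:**
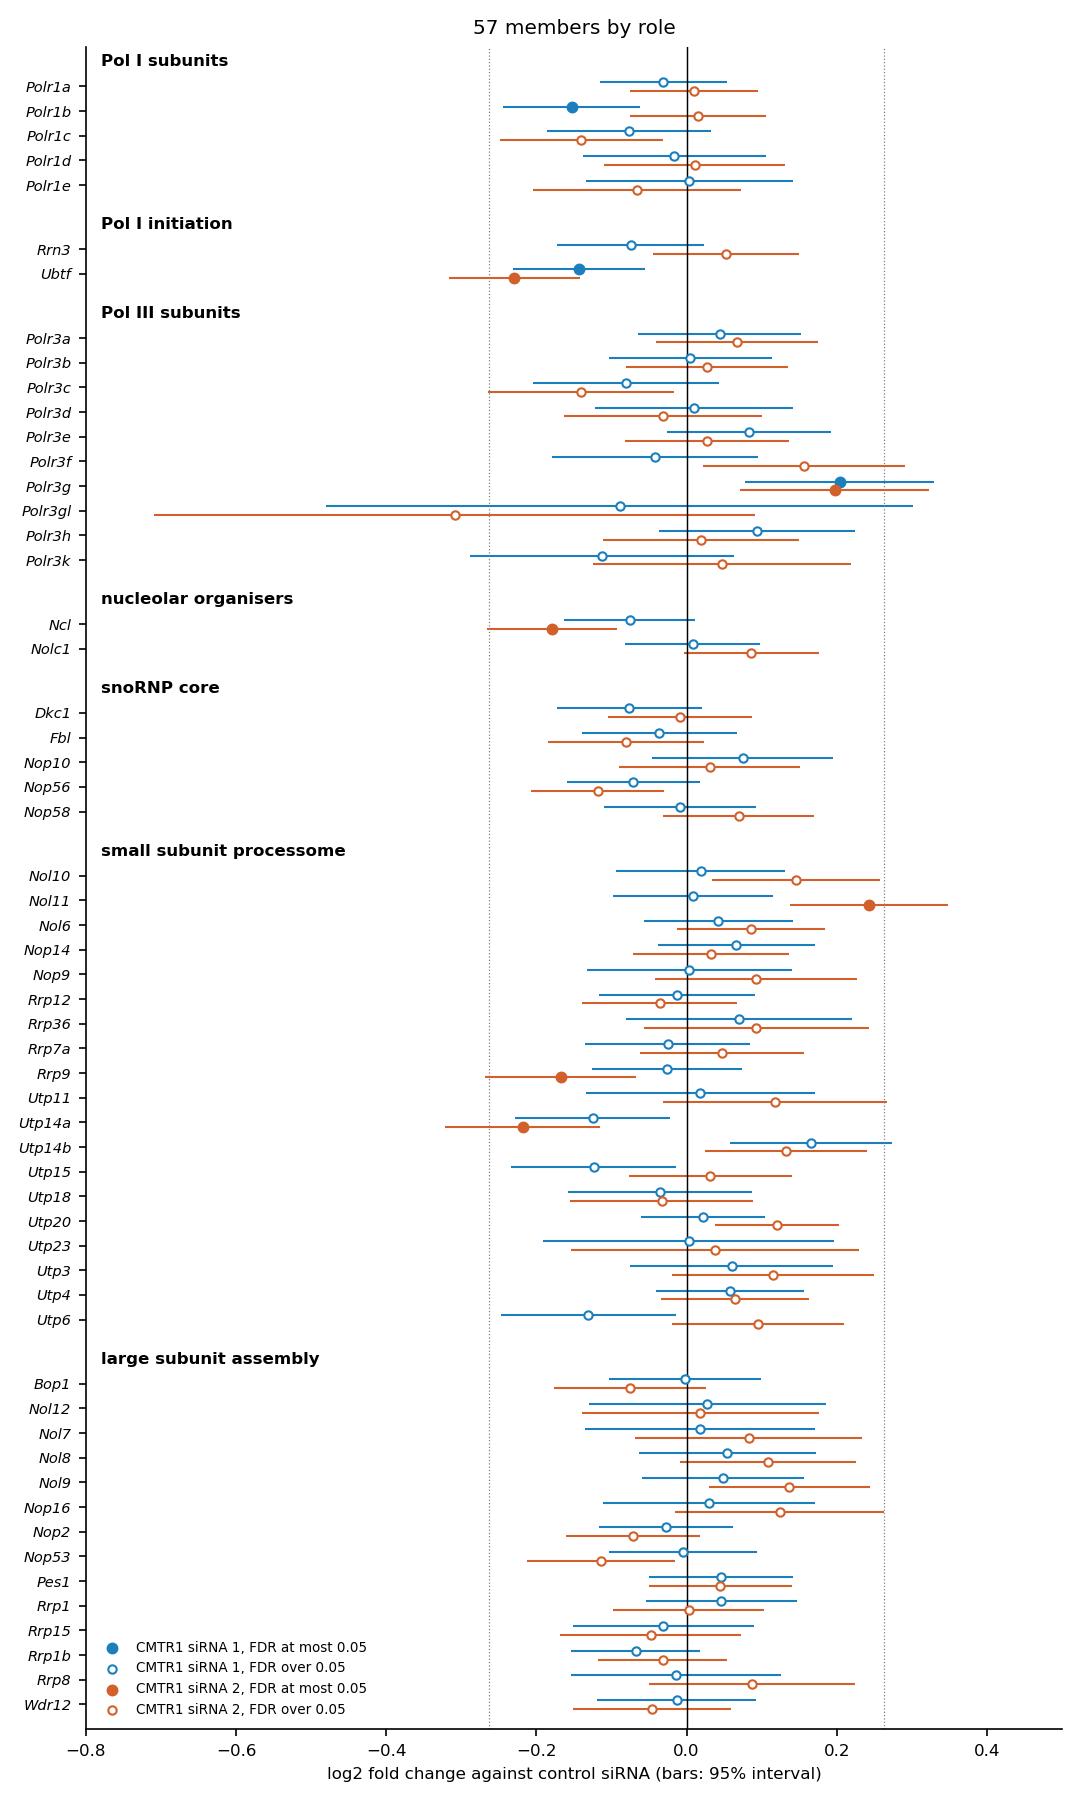
Log2 fold change against control for 57 members by role (Nol3, Nol4 and Nol4l are left out), with 95% intervals from edgeR's quasi-likelihood fit; blue is CMTR1 siRNA 1, orange CMTR1 siRNA 2, and filled points have an adjusted p of at most 0.05. Dotted lines mark 1.2-fold. Ubtf and Polr3g are filled for both siRNAs, on opposite sides of 0, and most intervals cross 0.

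Among the genes for RNA polymerase I and its start, Ubtf fell with both siRNAs. Ubtf (ENSMUSG00000020923; chromosome 11, 102304560 to 102319742, minus strand) encodes UBF, the DNA-binding protein that keeps ribosomal DNA open and helps recruit Pol I. Its CPM values were 302, 319 and 313 in control, against 283, 278, 292 and 276 with siRNA 1 and against 260, 269, 271 and 263 with siRNA 2. All siRNA libraries were below all control libraries, and those of siRNA 2 below those of siRNA 1. On the log2 scale the difference from control was −0.14 with siRNA 1 (SE 0.04, adjusted p = 0.0455), −0.23 with siRNA 2 (SE 0.04, adjusted p = 3.4e-04) and −0.19 over both (adjusted p = 0.0012). The difference between the siRNAs, −0.09, was not called (adjusted p = 0.209). With siRNA 1 the call was lost without control replicate 1, 2 or 3, siRNA 1 replicate 1, 2 or 4, or siRNA 2 replicate 1 (adjusted p 0.0513 to 0.237) and when genes were not filtered (0.0824), while with siRNA 2 and over both it passed in each of the 11 fits that leave out a library.

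Polr1b (ENSMUSG00000027395; chromosome 2, 129100995 to 129126594, plus strand), the second largest subunit of Pol I, fell with siRNA 1 and not detectably with siRNA 2. It was at 210, 213 and 214 CPM in control, at 185, 193, 196 and 190 with siRNA 1, and at 216, 220, 212 and 210 with siRNA 2. The siRNA 1 libraries lay below all others, and the siRNA 2 libraries overlapped control. Its log2 fold change was −0.15 with siRNA 1 (SE 0.05, adjusted p = 0.037) and 0.02 with siRNA 2 (95% interval −0.08 to 0.11), and the difference between the siRNAs was 0.17 (adjusted p = 0.0081). Against control the call was lost without control replicate 1, 2 or 3 or siRNA 1 replicate 1, 2 or 4 (adjusted p 0.0725 to 0.14) and when genes were not filtered (0.0778). The call between the siRNAs passed in all 11.

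The other Pol I genes were not called against control. Polr1a, the largest subunit, was at 374, 367 and 379 CPM in control, at 371, 363, 360 and 368 with siRNA 1 and at 368, 389, 377 and 369 with siRNA 2, and its groups overlapped. Polr1c and Polr1d are shared with Pol III: Polr1c was at 115 ± 4.16 CPM in control, 109 ± 4.21 with siRNA 1 and 104 ± 5.09 with siRNA 2 (log2 fold change −0.14, adjusted p = 0.0936), and passed the threshold with TMM factors (−0.17, adjusted p = 0.0438) and without siRNA 2 replicate 2 (−0.17, adjusted p = 0.0431). Rrn3, the initiation factor TIF-IA that links Pol I to the promoter, was at 313, 328 and 310 CPM in control, at 278, 294, 311 and 320 with siRNA 1 and at 336, 345, 306 and 328 with siRNA 2 (adjusted p = 0.462 and 0.548). The siRNAs differed by 0.13 for Rrn3 (adjusted p = 0.0715), which passed without siRNA 2 replicate 3 (0.0176) or siRNA 1 replicate 4 (0.045). The Pol I subunits under other names, Cd3eap, Twistnb and Znrd1, had log2 fold changes between −0.10 and 0.11, with adjusted p of at least 0.435 for both siRNAs.

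Of 10 Pol III subunits only Polr3g was called against control (10% with each siRNA, beside 4.67% and 9.72% of all genes). Polr3g (ENSMUSG00000035834; chromosome 13, 81673843 to 81711013, minus strand) and its paralog Polr3gl encode alternative versions of one subunit, and Polr3g is known as the form of pluripotent cells. Polr3g was at 70.8, 65.0 and 60.3 CPM in control, at 69.6, 75.3, 78.8 and 77.4 with siRNA 1 and at 77.7, 75.9, 71.7 and 74.8 with siRNA 2. The siRNA 2 libraries all lay above control, while 1 siRNA 1 library lay within the control range. The log2 fold change was 0.20 with each siRNA (SE 0.06; adjusted p = 0.0485 with siRNA 1 and 0.0362 with siRNA 2) and the siRNAs did not differ detectably (difference −0.006, adjusted p = 0.965).

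The Polr3g calls were near the threshold. With siRNA 1 the call was lost without control replicate 2 or 3, siRNA 1 replicate 2, 3 or 4, or siRNA 2 replicate 1 (adjusted p 0.0527 to 0.296). With siRNA 2 it was lost without control replicate 2 or 3 or siRNA 2 replicate 1, 2 or 4 (0.0541 to 0.25), and for both siRNAs it was lost with TMM factors (0.0854 and 0.0739) and with DESeq2 (0.153 and 0.142). With no filter on low counts the siRNA 1 value was 0.0614. Over both siRNAs the adjusted p was 0.0199, and it was 0.106 without control replicate 2, 0.229 without control replicate 3 and 0.0866 with DESeq2.

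Polr3gl was far lower than Polr3g. It was at 5.59, 7.40 and 4.71 CPM in control, at 6.68, 3.86, 6.604 and 5.35 with siRNA 1 and at 3.98, 4.53, 6.47 and 4.20 with siRNA 2, and the groups overlapped. Against control it differed by −0.09 on the log2 scale with siRNA 1 (SE 0.19) and −0.31 with siRNA 2 (SE 0.20), neither called (adjusted p = 0.877 and 0.361). Per kilobase of exon, Polr3g exceeded Polr3gl by 4.77 ± 0.954 times in control (SD, n = 3), 5.88 ± 1.66 with siRNA 1 and 6.80 ± 1.53 with siRNA 2 (n = 4 each). The ratio did not differ from control beyond its spread (two-sided exact permutation test, p = 0.4 and p = 0.171, where 0.0571 is the smallest p that 3 against 4 libraries allow).

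Polr3f (ENSMUSG00000027427; chromosome 2, 144527718 to 144541995, plus strand), a subunit of the part of Pol III that opens the promoter, differed between the siRNAs. It was at 59.5, 50.8 and 57.5 CPM in control, at 49.4, 59.2, 52.7 and 55.3 with siRNA 1, and at 62.1, 62.9, 60.4 and 63.7 with siRNA 2, so that all siRNA 2 libraries lay above all others. The siRNA 2 level exceeded that of siRNA 1 by 0.20 on the log2 scale (SE 0.06, adjusted p = 0.0399), and neither siRNA was called against control (adjusted p = 0.819 and 0.136). The call between the siRNAs was lost without siRNA 1 replicate 1, 3 or 4 or siRNA 2 replicate 1, 2 or 4 (adjusted p 0.0638 to 0.168) and with DESeq2 (0.0939). The largest subunit, Polr3a, was at 132, 117 and 131 CPM in control, at 123, 130, 133 and 135 with siRNA 1 and at 124, 134, 139 and 133 with siRNA 2, with overlap of all groups. The remaining Pol III subunits had log2 fold changes between −0.14 and 0.09.

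Among nucleolar organisers, Ncl (ENSMUSG00000026234; chromosome 1, 86344719 to 86359400, minus strand) fell with siRNA 2. Nucleolin binds precursor rRNA and ribosomal DNA and is among the most abundant proteins of the nucleolus. It was at 2006, 2113 and 2025 CPM in control, at 1827, 1880, 2065 and 2000 with siRNA 1, and at 1778, 1779, 1758 and 1922 with siRNA 2. The siRNA 2 libraries lay below control, and those of siRNA 1 overlapped it. Ncl fell by 0.18 on the log2 scale with siRNA 2 (SE 0.04, adjusted p = 0.0046), the value with siRNA 1 was −0.08 (adjusted p = 0.378), and the siRNAs were not called different (adjusted p = 0.111, and 0.0476 without siRNA 2 replicate 4). Without control replicate 2 the adjusted p for siRNA 2 was 0.0539. Over both siRNAs the value was −0.13 (adjusted p = 0.031), lost without control replicate 1, 2 or 3, siRNA 1 replicate 1 or 2, or siRNA 2 replicate 1 (0.0538 to 0.235). Introns of Ncl hold 3 annotated small RNAs, those of Nop56 hold 5 and those of Nop58 hold 4.

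No member of the snoRNP core was called by edgeR among 5 tested, where 4.67 to 9.72% of all genes were, by comparison. Only Nop56, with siRNA 2 and over both, had an unadjusted p under 0.05. Nop56, which holds the guide RNA of box C/D particles together with Nop58, was at 394, 407 and 387 CPM in control, at 383, 369, 374 and 381 with siRNA 1 and at 348, 349, 383 and 379 with siRNA 2. Its libraries did not overlap control with either siRNA. Its log2 fold change was −0.12 with siRNA 2 (SE 0.04, adjusted p = 0.0818), which passed with TMM factors (−0.14, adjusted p = 0.0327), with DESeq2 (−0.15, 0.0191) and without siRNA 2 replicate 3 (−0.14, 0.0326). Over both siRNAs DESeq2 called it as well (−0.12, 0.0406). Fbl was at 149, 159 and 148 CPM in control, at 143, 145, 152 and 154 with siRNA 1 and at 152, 149, 138 and 137 with siRNA 2. Nop58 was at 378, 385 and 346 CPM, then 338, 366, 379 and 386, then 382, 368, 376 and 425 in the same order. Dkc1, dyskerin, the pseudouridine synthase of box H/ACA particles, was at 242, 250 and 235 CPM, then 220, 221, 248 and 231, then 242, 236, 233 and 252. All groups overlapped for these 3 genes. Of the 75-base words of their transcripts, 17% for Fbl and 14.4% for Nop56 occur in other genes, so their counts are less certain.

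In the small subunit processome, edgeR called 3 of 19 members with siRNA 2 (15.8%, beside 9.72% of all genes), 3 between the siRNAs (15.8%, beside 7.44%) and 0 with siRNA 1 (beside 4.67%), where 4 had an unadjusted p under 0.05 and exactTest called 1, Utp14b. Nol11 (ENSMUSG00000018433; chromosome 11, 107166663 to 107189381, minus strand), a subunit of the complex that couples Pol I transcription to processing, rose with siRNA 2, and the siRNAs differed. It was at 142, 141 and 137 CPM in control, at 132, 146, 148 and 136 with siRNA 1 and at 171, 172, 152 and 168 with siRNA 2. The siRNA 2 libraries lay above all others. Its log2 fold change was 0.24 with siRNA 2 (SE 0.05, adjusted p = 0.0015), 0.009 with siRNA 1 (adjusted p = 0.959) and 0.23 between the siRNAs (adjusted p = 0.0012). The calls with siRNA 2 and between the siRNAs passed in each of the 11 fits that leave out a library. Exons of other genes on either strand cover 8.16% of its exonic bases.

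Utp14a (ENSMUSG00000063785; chromosome X, 48256862 to 48282453, plus strand), which activates the helicase that takes the processome apart, was at 165, 172 and 171 CPM in control, at 145, 152, 163 and 162 with siRNA 1 and at 141, 143, 141 and 156 with siRNA 2. Every siRNA library lay below every control library. It fell by 0.22 on the log2 scale with siRNA 2 (SE 0.05, adjusted p = 0.0037), and the value with siRNA 1 was −0.13 (adjusted p = 0.174). Over both it was −0.17 (adjusted p = 0.0129), lost without control replicate 2 (0.103) or 3 (0.0842). Exons of other genes on either strand cover 11.5% of its exonic bases.

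Utp14b (ENSMUSG00000079470; chromosome 1, 78658038 to 78671512, plus strand), an autosomal retrogene copy of Utp14a, lay on the other side of control. It was at 106, 101 and 102 CPM in control, at 109, 118, 116 and 118 with siRNA 1 and at 109, 119, 112 and 110 with siRNA 2, again with no overlap between siRNA and control libraries. The change was called over both siRNAs (log2 fold change 0.15, SE 0.05, adjusted p = 0.0453) but with neither alone (0.17, adjusted p = 0.0617; 0.13, adjusted p = 0.112). The call was lost with TMM factors (0.101), DESeq2 (0.166) and no filter (0.0808), and without control replicate 1, 2 or 3, siRNA 1 replicate 2, 3 or 4, or siRNA 2 replicate 2 (0.0539 to 0.216). Of the exonic bases of Utp14b, 3.18% also belong to a differently named gene read in the same direction. Of its 75-base words, 1.75% occur in Acsl3. Whether reads from Acsl3 transcripts add to the Utp14b counts was not tested.

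Rrp9 (ENSMUSG00000041506; chromosome 9, 106475963 to 106485424, plus strand), the protein specific to the U3 snoRNP, fell with siRNA 2. It was at 158, 158 and 161 CPM in control, at 156, 152, 158 and 160 with siRNA 1, and at 143, 149, 131 and 144 with siRNA 2. The siRNA 2 libraries lay below all others. The difference from control was −0.17 on the log2 scale (SE 0.05, adjusted p = 0.0245), lost without control replicate 1, 2 or 3 or siRNA 2 replicate 3 (0.0536 to 0.102). With siRNA 1 it was −0.03 (adjusted p = 0.85), and the difference between the siRNAs, −0.14, missed the threshold (adjusted p = 0.0518). It passed with TMM factors (0.0476), with library sizes without Gm26917 (0.0372), with only genes over 1 CPM in all libraries (0.0463) and without siRNA 2 replicate 2 (0.0327).

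Utp6 and Utp15 differed between the siRNAs while neither was called against control. Utp6 (ENSMUSG00000035575; chromosome 11, 79932321 to 79962390, minus strand) was at 144, 160 and 135 CPM in control, at 125, 128, 143 and 138 with siRNA 1 and at 154, 165, 143 and 162 with siRNA 2. The difference was 0.23 on the log2 scale (SE 0.05, adjusted p = 0.005) and passed in all 11 fits that leave out a library. Utp15 (ENSMUSG00000041747; chromosome 13, 98246845 to 98263041, minus strand), a partner of Nol11 in the same complex, was at 99.3, 106 and 105 CPM in control, at 89.5, 98.1, 93.9 and 97.4 with siRNA 1 and at 103.1, 103.1, 105 and 111 with siRNA 2. For Utp15 the difference of 0.16 had an adjusted p of 0.0492, which passed the threshold in none of the 11 fits that leave out a library (0.0501 to 0.171), nor with TMM factors (0.0562) or DESeq2 (0.0957). The remaining 13 processome members had no call in any comparison, and the largest value against control was that of Nol10 with siRNA 2 (0.15, adjusted p = 0.0881). Utp20, at 521 to 526 CPM in control and 555 to 580 with siRNA 2 (0.12, adjusted p = 0.0528), passed without siRNA 2 replicate 3 (0.0332) or siRNA 1 replicate 1 (0.0467).

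**Figure D4:**
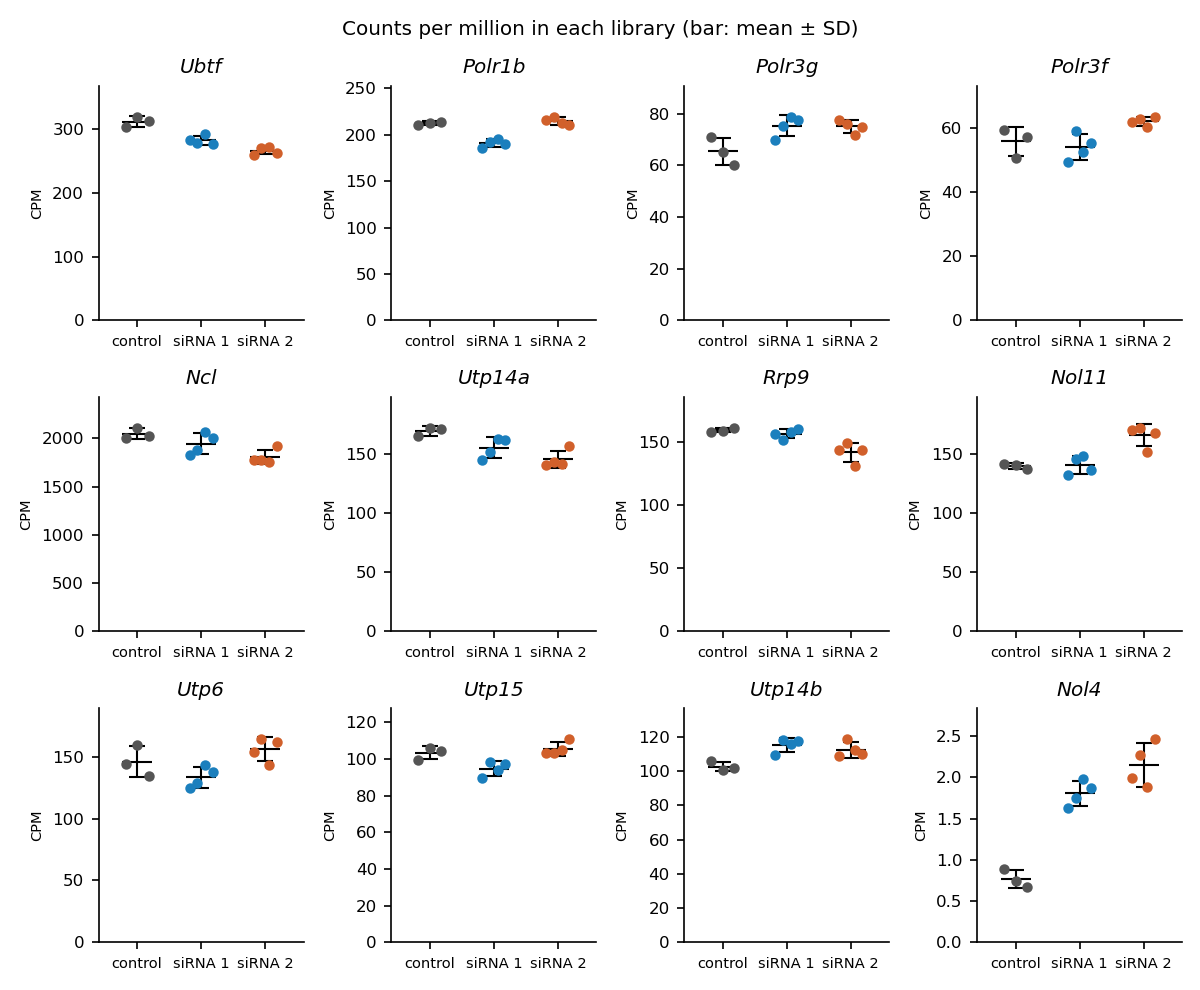
CPM in each library for the 12 members called in any comparison (points are libraries, black bars the mean ± SD; 3 control libraries in grey, 4 of CMTR1 siRNA 1 in blue and 4 of CMTR1 siRNA 2 in orange). Each axis starts at 0, which shows how small the differences are beside the levels, other than for Nol4, whose levels stay under 2.5 CPM.

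None of 14 large subunit assembly members was called in any comparison by edgeR or DESeq2 on all libraries. Of all genes, edgeR called 4.67% with siRNA 1, 9.72% with siRNA 2, 6.91% over both and 7.44% between the siRNAs. Pes1, Bop1 and Wdr12 form a complex needed for processing of 28S rRNA. Pes1 was at 212, 219 and 210 CPM in control, at 217, 220, 225 and 222 with siRNA 1 and at 209, 239, 213 and 221 with siRNA 2, and 10.4% of its 75-base words occur in other genes. Bop1 was at 185, 178 and 191 CPM, then 191, 186, 175 and 185, then 176, 189, 165 and 170 in the same order. Wdr12 was at 145, 139 and 128 CPM, then 127, 141, 137 and 139, then 135, 128, 133 and 136. The groups overlapped for all 3 genes. The range of the 14 log2 fold changes was −0.07 to 0.05 with siRNA 1 and −0.11 to 0.14 with siRNA 2. At an unadjusted p under 0.05, edgeR counted 0 of the 14 with siRNA 1 and 2 with siRNA 2, Nol9 and Nop53. Nol9 passed with siRNA 2 without siRNA 2 replicate 3 (0.18, adjusted p = 0.0245).

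Nol4 (ENSMUSG00000041923; chromosome 18, 22693181 to 23041653, minus strand) showed the largest fold change of the members, at a level where few reads were counted. Its reads per library numbered 7, 6 and 5 in control, then 11, 14, 15 and 14 with siRNA 1, then 14, 19, 14 and 20 with siRNA 2, or 0.767 ± 0.110, 1.81 ± 0.151 and 2.15 ± 0.265 CPM. The siRNA libraries all lay above control. The change was 1.22 on the log2 scale with siRNA 1 (SE 0.34, adjusted p = 0.0262) and 1.47 with siRNA 2 (SE 0.33, adjusted p = 0.002), and DESeq2 gave no adjusted p at this depth. With siRNA 1 the call was lost without control replicate 1, 2 or 3 or siRNA 1 replicate 2, 3 or 4 (0.0503 to 0.116) and with no filter (0.0524). Nol4 passed the filter through the siRNA groups, in which it is higher. Its relative Nol4l was at 12.6 to 20.2 CPM with no call (0.16, adjusted p = 0.547; 0.28, adjusted p = 0.129, and 0.0463 without siRNA 2 replicate 4). Nol3, with 66 reads over all libraries, did not pass the filter and was not tested: it was at 0.247 to 0.404 CPM in control, 0.535 to 1.19 with siRNA 1 and 0.944 to 1.55 with siRNA 2.

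Between the siRNAs, 5 members were called (8.47%, beside 7.44% of all genes), all higher with siRNA 2 than with siRNA 1 (beside 4.49% of all genes): Nol11, Utp6, Utp15, Polr1b and Polr3f. None was called lower in the main edgeR fit or by DESeq2, where 2.96% of all genes were by edgeR. In that direction 4 members had an unadjusted p under 0.05 (Ncl, Nop53, Rrp9 and Ubtf). Under other settings edgeR did call members lower. These were Rrp9 with TMM factors, library sizes without Gm26917, the stricter 1 CPM filter or without siRNA 2 replicate 2, and Ncl without siRNA 2 replicate 4. The count was 3 without siRNA 1 replicate 1 or 3 or siRNA 2 replicate 1, and 3 with DESeq2. Libraries of the siRNAs did not overlap at 9 members (15.3%, beside 11.8% of all genes).

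The pathway's other genes were taken from lists by name. Of 153 tested, 3 were called with siRNA 1 (1.96%, beside 4.67% of all genes), 1 lower and 2 higher. With siRNA 2, 6 were called (3.92%, beside 9.72%), 2 lower and 4 higher. Pno1, a 40S assembly factor, was called with both siRNAs, higher by 0.25 with siRNA 1 (adjusted p = 0.008) and 0.36 with siRNA 2 (adjusted p = 4.1e-05), from 72.3 to 81.6 CPM in control to 84.8 to 99.2 and 95.2 to 102 CPM. With siRNA 1, Ddx21, a nucleolar helicase, was lower (−0.17, adjusted p = 0.0188) and Gtf3a, the 5S rRNA factor TFIIIA, higher (0.23, adjusted p = 0.023). With siRNA 2, Taf1d, a subunit of the Pol I selectivity factor, and Exosc5, of the RNA exosome, were lower (−0.23, adjusted p = 0.0045; −0.18, adjusted p = 0.0305), and Ddx24, Urb1 and Mtrex were higher (0.15, 0.16 and 0.15). Between the siRNAs, 10 were called (6.54%, beside 7.44%), 6 higher with siRNA 2 and 4 lower, and Ddx52, a helicase, differed most (0.36, adjusted p = 1.6e-04). Rsl1d1, Nip7, Esf1, Wdr3 and Ddx21 were also higher, by 0.15 to 0.20, and Taf1d, Ruvbl2, Exosc5 and Exosc7 lower, by −0.15 to −0.17.

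Several short RNAs that act in rRNA processing fell with siRNA 2. Of 26 Pol III and processing RNAs listed, 10 were tested, and the list was chosen with earlier results of these data known. With siRNA 1 edgeR called 0, beside 4.67% of all genes (unadjusted p under 0.05 for 2, Snora73a and Snora73b). With siRNA 2 it called 5 (50%, beside 9.72% of all genes), 4 lower and 1 higher. Snord13 (U13), which guides a modification of 18S rRNA, was at 26.3, 18.8 and 19.8 CPM in control, at 25.97, 23.2, 21.0 and 18.8 with siRNA 1 and at 15.3, 10.6, 14.6 and 8.89 with siRNA 2 (log2 fold change −0.82, SE 0.13, adjusted p = 4.0e-05). Snora73b (U17), needed for 18S rRNA processing, was at 223, 189 and 194 CPM in control, at 202, 187, 174 and 173 with siRNA 1 and at 145, 122, 157 and 139 with siRNA 2 (−0.52, SE 0.06, adjusted p = 7.7e-08). For both RNAs the siRNA 2 libraries lay below all others, and the difference between the siRNAs was called (−0.86, adjusted p = 8.1e-06; −0.39, adjusted p = 1.4e-05). Snord118 (U8) and Snord17 were lower with siRNA 2 (−0.48, adjusted p = 0.0285; −0.32, adjusted p = 0.0207), and Bc1, a Pol III transcript, higher (0.33, adjusted p = 0.0281). Unlike for the members, the effect of scaling, test or single libraries on these calls is not given here. Discarding duplicates can also lower counts of very abundant short genes. Against control, Snora73a, the other Snora73 gene listed, was not called with either siRNA, and its unadjusted p was under 0.05 with siRNA 1 only. Between the siRNAs its unadjusted p was also under 0.05, without a call. The Pol III transcript Rn7sk was at 690 to 791 CPM with no call (0.02 and −0.04), and rRNA itself was depleted before sequencing, so its level is not described here.

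Promoters are shown for Ncl, Nol11 and Polr3g, the called members for which RefSeq gives 1 start and for which the 120 bases before it lie wholly outside the annotated gene. Sequences are from RefSeq on GRCm38.p6, 5′ to 3′ on the gene's strand, and end at the base before the start. Capitals mark CACGTG, the E-box that MYC-family proteins can bind, and CGGAAG or its reverse complement CTTCCG, the core of many ETS-family sites.
Ncl, minus strand, chr1:86359456-86359575: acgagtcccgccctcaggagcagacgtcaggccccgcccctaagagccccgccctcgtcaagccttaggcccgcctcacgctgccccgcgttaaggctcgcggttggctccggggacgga
Nol11, minus strand, chr11:107189382-107189501: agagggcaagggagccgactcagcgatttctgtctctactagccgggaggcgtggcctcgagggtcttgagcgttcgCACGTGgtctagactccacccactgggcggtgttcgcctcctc
Polr3g, minus strand, chr13:81711014-81711133: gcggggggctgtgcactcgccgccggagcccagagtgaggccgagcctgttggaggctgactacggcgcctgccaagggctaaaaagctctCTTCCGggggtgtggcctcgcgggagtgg

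The E-box letters of Nol11 begin 43 bases before the start and the ETS letters of Polr3g 29 bases before it, while these letters are not in the window of Ncl. RefSeq windows matched 47 of the 60 members. In the 250 bases before the start, on both strands, CACGTG was in 8 of 47 members (17%) and in 10.0% of the 10364 protein-coding genes tested that have a window. CGGAAG or CTTCCG was in 20 of 47 members (42.6%) and in 28.2% of those genes. The letters of the E-box and ETS motifs cannot overlap, and 7 of the 47 members have more than 1 start, each of which was searched. Members with either motif include genes called higher (Polr3g, Nol11, Utp14b), genes called lower (Utp14a, Rrp9) and many with no call.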

How the data were processed

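RNA-seq was measured in 11 libraries of E14 mouse ESCs: 3 of control siRNA, 4 of CMTR1 siRNA 1 and 4 of CMTR1 siRNA 2. The authors deposited whole-number counts of reads per Ensembl gene for each library. Their pipeline, per the labels and methods, used Cutadapt for trimming, STAR for alignment to GRCm38, Picard to discard PCR duplicates and, as named there, featureCounts for counting, although the closing rows of the files have the layout of HTSeq-count output. Discarding duplicates can lower counts of very abundant short genes. The strand setting of the counting is not given in the sources used here, so overlap with antisense genes leaves a count uncertain. In 10 of the 11 files closing rows that name no gene (39.2 to 44.3% of reads in no gene, 0.963 to 1.05% ambiguous) were set aside. Totals of 6738478 to 8382318 counts set the precision.

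Symbols came from GENCODE vM21 (54809 of 54838 identifiers matched), and per-kilobase levels used the exons of its basic set. Counts were tested with edgeR 4.0.16 (R 4.3.3): quasi-likelihood test, 1 model of the 3 groups, libraries scaled by total counts, genes over 1 CPM in at least 4 libraries (16073 genes, 59 of 60 members), 8 residual degrees of freedom, called at an adjusted p of 0.05. CPM values are counts divided by the library total. Alternatives were TMM factors (0.986 to 1.01), library sizes without Gm26917, DESeq2 1.42.0, exactTest, 2 other filters, 2 groups only, a replicate block and each library left out. The code was tested on simulated data. Figures used Python 3.11.15 and matplotlib 3.10.9. The members and all gene lists were chosen with earlier results of these data known. Values per library are given for members called in any comparison and for 15 members fixed by name, and other pathway genes are named if called, at most 4 per list and comparison. Shared sequence is the share of a gene's 75-base words found in other genes.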

Additional observations from a re-analysis of the deposited data

Results flagged for a closer look

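Among the 120 values for a member in a siRNA group, 5 (4.17%) had 1 library far from the other 3 by Dixon's test at the 95% level, where chance gives about 1 in 20. With siRNA 2, Ncl was at 1922 CPM in replicate 4 and at 1758 to 1779 in the others, Utp14a was at 156 CPM in the same replicate and at 141 to 143 in the others, and Nol3 was at 1.55 CPM in replicate 2 and at 0.944 to 0.994 in the others. With siRNA 1, replicate 1 was lowest for Nolc1 (345 CPM, others 361 to 363) and Rrp1b (301 CPM, others 311 to 312). For Ncl and Utp14a the outlying library lay nearer to control than the other 3.

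The siRNAs, which target the same mRNA, differed from each other at 5 members by the contrast between them in edgeR's quasi-likelihood test. The level was higher with siRNA 2 for Nol11 (0.23 on the log2 scale, adjusted p = 0.0012), Utp6 (0.23, adjusted p = 0.005), Polr1b (0.17, adjusted p = 0.0081), Polr3f (0.20, adjusted p = 0.0399) and Utp15 (0.16, adjusted p = 0.0492).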

How the results depend on the processing

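Members called against control were few under each alternative. Members called with siRNA 1 numbered 4, and were 2 with DESeq2, 1 with the replicate block and 0 with edgeR when genes were not filtered (9 at an unadjusted p under 0.05). Between the siRNAs, members called fell from 5 to 3 with DESeq2. Over all genes, DESeq2 called 958 with siRNA 2 (1562 with edgeR) and 740 between the siRNAs (1196 with edgeR). The cause of these shifts was not tested.

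With each library left out in turn, members called ranged from 0 to 4 with siRNA 1, 4 to 9 with siRNA 2, 2 to 7 over both and 3 to 5 between the siRNAs. All genes called ranged from 355 (without control replicate 2) to 850 with siRNA 1, 807 (without control replicate 3) to 1667 with siRNA 2, 499 (without control replicate 2) to 1215 over both and 724 (without siRNA 1 replicate 2) to 1374 between the siRNAs. For the named genes, 1648 values under an alternative kept their direction and side of the threshold or stayed within 1 SE, 93 lost a call, 15 gained one, 12 moved without a call and 0 turned.

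No sign was seen that replicate numbers shared by the groups pair the libraries. Deviations from the group means correlated at −0.06 to 0.06 over the 10 pairs of equal number, none above 0.1. The 30 pairs of other number gave −0.07 to 0.07. Counting noise over all genes tested can hide a shared batch, so pairing was not excluded. With the number as a replicate block, members called were 1, 7, 5 and 5 in the order above and all genes called 840, 1486, 1144 and 1242. Adjusted p was then above the threshold for Ubtf (0.0888), Polr1b (0.0695) and Polr3g (0.068) with siRNA 1, Polr3g with siRNA 2 (0.0565) and Utp14b over both (0.0669), and under it for Nol4l with siRNA 2 (0.0354). At this depth members had a median of 0.11 on the log2 scale on either side of the estimate as 95% interval, so smaller differences were not detectable for most of them.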
